A study of Homo sapiens with 5 samples.

Results

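The snRNP protein genes are 40 genes for proteins of the spliceosome's small nuclear ribonucleoprotein particles and of factors that work beside them. They were chosen by name from textbook membership, with earlier results of these data known. They cover U1 and U1-associated proteins, the Sm core, U2 and its SF3A and SF3B subcomplexes, the branch site and 3' splice site factors, and U5 and the U4/U6.U5 tri-snRNP. Every intron that the tables listed for these genes was used where its depth plus spliced reads reached 10 in both libraries of a table. In all, 126 different introns in 29 of the 40 genes met this, out of 33693 introns in 8168 genes. The other 11 members had no intron in any of the 3 tables: LUC7L2, SNRPD1, SNRPD3, SNRPG, SNRPB2, SF3B5, PUF60, U2AF1, PRPF31, PRPF8 and TXNL4A.

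An snRNP is an RNA and protein particle that recognises part of an intron. U1 binds the 5' splice site, SF1 and the U2AF proteins bind the branch site and the 3' splice site, and U2 then takes over the branch site with SF3B1 as the subunit that holds it. The tri-snRNP joins next, and the helicases DDX23 and SNRNP200 and the scaffold PRPF8 rebuild it into the catalytic spliceosome. Most of these proteins are needed in every dividing cell, and the genes that encode them have introns of their own.

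Polyadenylated RNA was sequenced from DLD-1, an established line of human colorectal adenocarcinoma cells. There were 5 groups of 1 library each. Cells of the genotype DLD-1 LacZeo were a control with no treatment given in the labels (the file headers call it control RNAi), or received 100 nM siRNA against WBP11 or against SNW1 for 72 h. WBP11 acts in splicing as a spliceosome-bound protein, and SNW1 is a component of the activated spliceosome. Cells of the genotype DLD-1 LacZeo osTIR1, which carry a plant auxin receptor, were given 500 µM auxin for 48 h either as a control or as the WBP11 degron line, in which, per the series' design text, an AID-tagged WBP11 transgene stands in for the knocked-out endogenous gene. Both RNAi libraries were set against the same control library. No degron library without auxin was part of the comparison, so the loss of WBP11 under auxin and any other difference between the lines cannot be told apart. With 1 library per group there is no replicate check and no test, and every interval below is a 95% interval that covers counting error within these libraries only.

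The intron retention ratio is the share of RNA at an intron that kept it, here in percent, and a difference is the depleted library minus its control in percentage points. "Rose" and "fell" are used for differences of at least 10 points. Spliced reads of the targeted genes were 20 against 312 in the control for WBP11 after WBP11 RNAi, and 31 against 401 for SNW1 after SNW1 RNAi. In the WBP11 auxin library WBP11 had 103 against 235 in the auxin control, a ratio of 0.380 (0.299 to 0.482) relative to the library totals, where the protein and not the RNA is the target. The listed introns of a library held between 2987572 and 5527186 spliced reads. A member intron had a median of 366, 317 and 499 observations (depth plus spliced reads, over both libraries) in the WBP11 RNAi, SNW1 RNAi and WBP11 auxin tables, against 107, 111 and 112 over all introns, so the snRNP protein genes are measured more deeply than the average intron. Epithelial marker genes were listed in every table (3 of 8 genes), and none of the fibroblast, leukocyte and endothelial markers was. Spliced reads at the listed introns of those 3 epithelial genes went from 39893 to 31278, from 246830 to 68208 and from 23619 to 13376 in the same order, and what part this has in the values below was not tested.

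Only 6 introns in 5 of these genes rose or fell in any table. The exon sequence joined when each is spliced out is given here, because it shows the junction that splicing of the intron makes. Each line holds 15 exon bases on either side of the removed intron, 5' to 3' on the strand of the gene, with the last 3 bases of the upstream exon in capitals, from GENCODE release 29 transcripts (GRCh38).
SF3B2 intron 18: tacccctgcagaCAGtggccttatcactcc
SF3B1 intron 19: aagacttgtcaaGAGgaaaaattgatggga
SF3B2 intron 5: gagcagcagaagCGGgcagctgtgttactg
PRPF39 intron 13: agtgcgtggtatCAAtacaattatcagaat
SNRPE intron 1: tgtcaggactagGAGccactgtggtgcaga
U2AF2 intron 9: aacgtcacggatCAGgccattgcggggctg

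The upstream exon ends in CAG, the ending that pairs best with U1 RNA together with AAG, at SF3B2 intron 18 and U2AF2 intron 9. It ends in GAG at SF3B1 intron 19 and at SNRPE, in CGG at SF3B2 intron 5 and in CAA at PRPF39. Over all member introns measured, AAG or CAG stood at the exon end of 11 of 57 introns in the WBP11 RNAi table (19.3%), 33 of 100 in the SNW1 RNAi table (33%) and 21 of 57 in the WBP11 auxin table (36.8%). The shares over all introns tested were 37.0%, 39.1% and 38.5%. The WBP11 RNAi table therefore lists proportionally fewer snRNP introns with these exon ends than it does over all genes, as a description of which introns were listed.

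**Figure D1:**
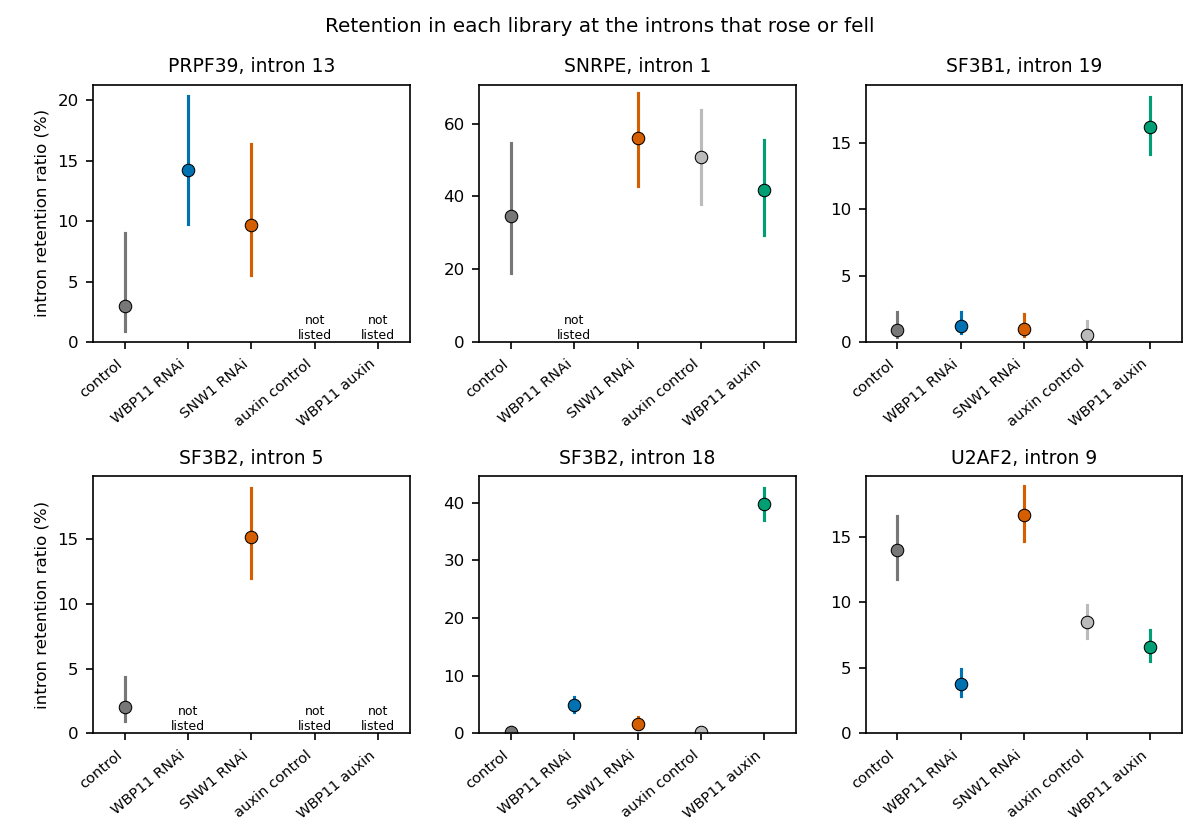
Intron retention ratio in percent (vertical axis) in each of the 5 libraries (horizontal axis) at the 6 introns of snRNP protein genes that rose or fell in a table. Points are the deposited ratios, bars are 95% Wilson intervals for counting error, and "not listed" marks a library whose table does not hold the intron. SF3B2 intron 18 stands at 39.7% and SF3B1 intron 19 at 16.2% in the WBP11 auxin library and under 5% in the other 4 libraries.

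Among U2 snRNP genes, the largest change was in SF3B2 (ENSG00000087365.13, chromosome 11, plus strand), which encodes a subunit of the SF3B complex that contacts the RNA near the branch site. Its intron 18 of 21, 85 bp long at chr11:66063543-66063627 in the coding region, was retained in 39.7% of RNA in the WBP11 auxin library against 0.221% in the auxin control. It thus rose by 39.51 points (36.71 to 42.30). The depth over this intron went from 1.58 to 482, while the spliced reads across it were 714 and 731. At the 2 other SF3B2 introns listed in that table, spliced reads went from 592 to 984 at intron 9 and from 737 to 1334 at intron 10. Relative to the library totals, spliced reads at intron 18 stood at 0.889 of the auxin control. Those at introns 9 and 10 stood at 1.44 and 1.57 of it. The auxin control carried IRFinder's warning of uneven intron coverage at this intron, with next to no coverage to judge, and the WBP11 auxin library carried none.

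The same SF3B2 intron was nearly fully spliced in the control of the RNAi tables, at 0.228%. It stood at 4.89% in the WBP11 RNAi library, 4.67 points above it (3.22 to 6.09), with spliced reads of 509 in the control and 1084 in the depleted library. After SNW1 RNAi it stood at 1.61%, a difference of 1.38 points (0.23 to 2.59). Both intervals lie above 0 and both differences are under 10 points, so the order of the 3 depleted libraries at this intron was WBP11 auxin, WBP11 RNAi and SNW1 RNAi. The 3 intervals do not overlap each other, although the control differs between the auxin and RNAi tables.

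SF3B1 (ENSG00000115524.14, chromosome 2, minus strand) encodes the largest SF3B subunit, which closes around the branch site helix. Its intron 19 of 24, also 85 bp long, lies in the coding region at chr2:197400167-197400251. In the WBP11 auxin library it rose from 0.525% to 16.2%, by 15.69 points (13.40 to 18.01). Its depth went from 2.94 in the auxin control to 180 and its spliced reads from 556 to 929. After WBP11 RNAi it stood at 1.23% against 0.913%, and after SNW1 RNAi at 1.01% against 0.913%. Here the RNAi libraries lay only 0.31 and 0.10 points above their control, unlike at SF3B2 intron 18.

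The preceding SF3B1 intron, number 18 (280 bp, chr2:197400435-197400714), was just under the threshold in the same library. It stood at 10.8% against 1.69%, a difference of 9.12 points (6.46 to 11.61), with a warning of uneven coverage in the depleted library. In the RNAi tables it stood at 2.56% and 1.87% against 1.89% in the control. The pair of neighbouring introns was thus higher together in the WBP11 auxin library and close to control in both RNAi libraries.

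SF3B2 had a different pattern after SNW1 RNAi, with the larger differences at the listed introns from 4 to 9. Intron 5 (1252 bp, chr11:66055586-66056837) rose from 2.06% to 15.1%, by 13.05 points (9.16 to 17.02). Its depth went from 6.39 in the control to 61.3 and its spliced reads from 303 to 344. It was not listed in the WBP11 tables. Around it, intron 4 stood at 7.63% against 1.01%, intron 6 at 5.70 points above 6.27%, intron 7 at 10.1% against 4.52% (13.0% against 4.91% when recomputed from depth and spliced reads) and intron 9 at 10.5% against 5.13%. These 4 introns lay 5.42 to 6.62 points above the control with intervals above 0, while the other 6 SF3B2 introns listed (2, 10, 15, 18, 19 and 21) lay 0.71 to 1.51 points above it. In the WBP11 RNAi table, introns 6 and 7 differed from control by 0.47 and -0.78 points with intervals that include 0, and intron 9 by 3.55 points (0.82 to 6.05). The annotated gene has exon sequence of other transcripts inside introns 4, 5 and 9. The control of the SNW1 RNAi table carried a warning of uneven coverage at introns 4, 5 and 7.

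Intron 9 of SF3B2 (424 bp, chr11:66058406-66058829) was the intron nearest the threshold from below in the WBP11 auxin table. It stood at 12.2% against 2.35%, a difference of 9.86 points (7.50 to 12.11). Its ratio in the 2 controls was 5.13% and 2.35%, so the controls themselves differed by 2.78 points here. Across the 3 depletions, intron 9 was higher than its own control in each, with every interval above 0.

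**Figure D2:**
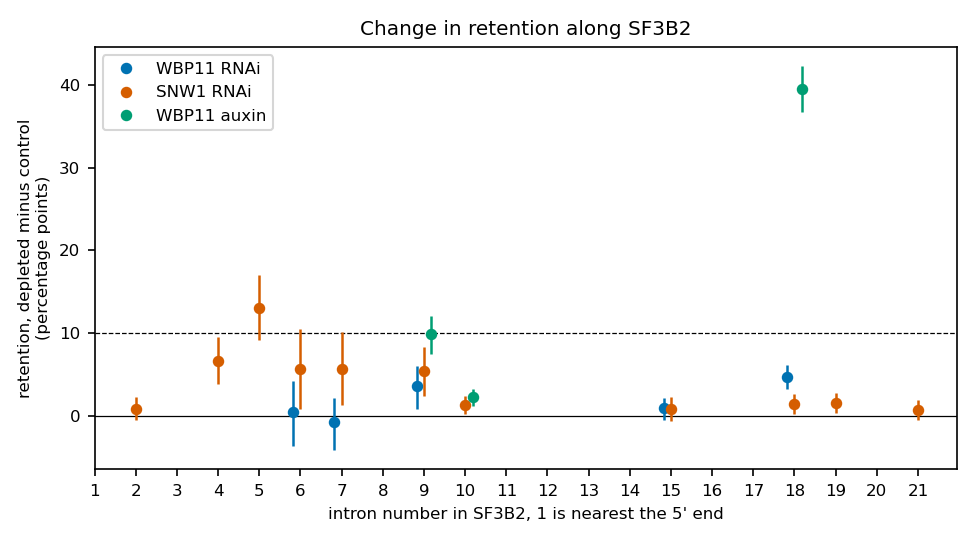
Difference in retention in percentage points (vertical axis) at each listed SF3B2 intron by its number from the 5' end (horizontal axis), for WBP11 RNAi, SNW1 RNAi and WBP11 auxin, each against its own control. Bars are 95% Newcombe intervals for counting error and the dashed line marks 10 points. The SNW1 RNAi points are highest at introns 4 to 9 and the WBP11 auxin point at intron 18 stands at 39.51.

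Another U2 gene, SF3A2, which encodes a subunit that helps the particle mature, had up to 7 introns listed and none that rose or fell. Its intron 3 (117 bp) stood at 7.27% against 1.38% in the WBP11 auxin library, a difference of 5.89 points (3.65 to 8.19), at 5.24% against 0.855% after SNW1 RNAi and at 2.57% against 0.855% after WBP11 RNAi. Its intron 5 (1197 bp) pointed down with loss of WBP11, at 3.68% against 7.18% after RNAi (-3.50 points, -6.10 to -1.12) and 6.83% against 10.1% under auxin (-3.23 points, -6.34 to -0.28). After SNW1 RNAi the same intron stood at 9.72% against 7.18%, with an interval that includes 0. Intron 6, at 79 bp the shortest intron measured in these genes, stood at 4.53% against 6.37% under auxin (-1.84 points, -4.49 to 0.61), in a table where 64.7% of all introns of up to 80 bp rose. After SNW1 RNAi it stood 3.86 points above control (0.79 to 6.71), and after WBP11 RNAi at -3.57 points (-6.22 to -1.23).

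The other U2 members were close to control. SF3A1, SF3A3, SF3B3, SF3B4, SNRPA1 and the helicase DDX46, which prepares U2 for binding, had no intron that rose or fell in any table. In the WBP11 RNAi library, DDX46 intron 10 stood at 0.185% against 2.30%, or -2.12 points (-5.78 to -0.45). SF3B4 intron 4 stood at 0.88% against 4.38% there, or -3.50 points (-7.83 to -0.79). For U2 snRNP genes as a group, 0 of 20, 1 of 35 and 2 of 21 introns rose with WBP11 RNAi, SNW1 RNAi and WBP11 auxin, beside 9.07%, 16.6% and 13.8% of all introns tested. Their median differences were 0.39, 1.29 and 0.84 points, beside 0.76, 2.63 and 1.45 over all introns.

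U2AF2 (ENSG00000063244.11, chromosome 19, plus strand) encodes the subunit of U2AF that reads the polypyrimidine tract ahead of the 3' splice site. It held the only intron of these genes that fell. Intron 9 of 11 (290 bp, chr19:55668793-55669082, coding region) went from 14.0% in the control to 3.76% with WBP11 siRNA, which is -10.22 points (-12.96 to -7.71). Its depth went from 111 in the control to 52.1 and its spliced reads from 682 to 1331, so both parts of the ratio moved. After SNW1 RNAi it stood at 16.7% (2.68 points, -0.58 to 5.80). Under auxin it stood at 6.61% against 8.49% (-1.88 points, -3.60 to -0.16). The auxin control was thus already 5.50 points below the other control, and set against the auxin control the WBP11 RNAi value was -4.72 points. The annotated gene has other transcripts with exon sequence inside this intron.

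SF1, the branch point binding protein that acts before U2, had introns measured in every table and none that rose or fell. Its differences after SNW1 RNAi were between 1.49 and 2.83 points at 4 introns, each with an interval above 0. The values under WBP11 depletion were 1.12 points at intron 11 (RNAi) and 0.80 points at intron 6 (auxin).

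U1 proteins changed little. SNRPC, which steadies the contact of U1 with the 5' splice site, stood at 4.78% against 0.328% at intron 1 after SNW1 RNAi, a difference of 4.45 points (2.34 to 7.40), and 0.90 and 0.77 points above control in the WBP11 RNAi and WBP11 auxin tables. SNRNP70, the protein that binds the first stem loop of U1 RNA, stood at 0.706% against 3.46% at intron 8 with WBP11 siRNA (-2.76 points, -4.20 to -1.58). SNRPA was listed at 1 intron in 1 table, with 1.21% against 0.252%.

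Of the U1-associated genes, PRPF39 (ENSG00000185246.16, chromosome 14, plus strand), a factor related to yeast proteins of the U1 particle, held the only member intron that rose after WBP11 RNAi. Intron 13 of 13 (242 bp, chr14:45114615-45114856, coding region) rose from 2.96% to 14.2%, by 11.26 points (3.74 to 17.70). Depth went from 2.56 in the control to 23.7 and spliced reads from 84 to 143, so this rise rests on far fewer reads than those in SF3B2 and SF3B1. The depleted library carried a warning of uneven coverage. After SNW1 RNAi the intron stood at 9.66%, a difference of 6.69 points whose interval includes 0 (-0.62 to 13.72).

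The whole PRPF39 intron can be read from a longer annotated transcript that keeps it (GENCODE release 29, GRCh38), with its first 6 and last 3 bases in capitals to mark the splice sites. Of its bases, 28.1% are G or C.
PRPF39 intron 13, whole: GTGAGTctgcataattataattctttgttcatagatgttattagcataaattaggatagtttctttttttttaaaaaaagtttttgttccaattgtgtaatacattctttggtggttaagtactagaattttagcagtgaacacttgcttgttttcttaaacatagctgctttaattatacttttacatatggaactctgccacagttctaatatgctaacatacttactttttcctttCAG

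Other PRPF39 introns were uneven between tables. Intron 9 (328 bp) stood at 10.0% against 2.88% after SNW1 RNAi (7.13 points, -0.24 to 13.98) and at 2.24% after WBP11 RNAi. Intron 10 (1500 bp), which also holds the small nucleolar RNA gene SNORD127, stood at 9.46% against 2.36% under auxin (7.10 points, 2.03 to 11.87). LUC7L and LUC7L3, U1-associated proteins that influence 5' splice site choice, differed from control by at most 1.55 points at each of their 4 listed introns.

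Sm proteins form the ring around each snRNA, and only 5 Sm introns were measured in all, in 4 of the 7 genes. SNRPE (ENSG00000182004.11, chromosome 1, plus strand) gave the largest difference after SNW1 RNAi and the least certain. The intron (438 bp, chr1:203861744-203862181) belongs to a noncoding transcript of the gene and overlaps an annotated exon. It stood at 56.0% against 34.7% after SNW1 RNAi, 21.26 points higher with an interval from -2.73 to 41.31, on 24 against 13 spliced reads and a depth of 30.5 against 10.6. The control carried IRFinder's warning of a minor isoform, and its deposited 34.7% lies below the 45.0% that its depth and spliced reads give. With the ratio recomputed from those reads the difference was 10.98 points, and with the auxin control as the control it was 5.07 points. Under auxin it stood at 41.9% against 50.9%, a difference of -8.98 points (-27.01 to 9.94). The 2 controls differed by 16.19 points at this intron as deposited and by 5.91 points when recomputed. SNRPB, SNRPD2 and SNRPF lay 0.60 to 1.43 points above control wherever listed.

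None of the U5 and tri-snRNP introns rose or fell, out of 23 after WBP11 RNAi, 41 after SNW1 RNAi and 27 under auxin. Over all introns, 9.07%, 16.6% and 13.8% rose and 1.69%, 0.359% and 1.37% fell. The largest difference after SNW1 RNAi was in SNRNP200, the helicase that unwinds U4 from U6 RNA: intron 34 (1278 bp) stood at 10.9% against 3.12%, a difference of 7.76 points (2.71 to 13.09). SNRNP200 was listed at 12 introns in that table, with differences of 0.46 to 7.76 points. Under auxin its intron 40 (91 bp) stood at 5.54% against 0.805%, a difference of 4.73 points (2.75 to 6.94). EFTUD2, the GTPase that works with SNRNP200, differed by at most 4.64 points, at intron 23 after SNW1 RNAi.

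PRPF3, a U4/U6 protein, had introns that differed in opposite directions within each WBP11 table. Intron 8 (2071 bp) stood at 5.61% against 1.46% after WBP11 RNAi (4.15 points, -0.84 to 7.07), at 5.06% after SNW1 RNAi and at 8.56% against 1.15% under auxin (7.42 points, 4.14 to 10.23). Intron 13 (271 bp) stood at 2.62% against 8.49% after WBP11 RNAi (-5.88 points, -12.74 to -1.56) and at 2.86% against 10.4% under auxin (-7.51 points, -12.29 to -3.78). After SNW1 RNAi it stood at 6.55%, the lowest difference of that table among these genes at -1.94 points, with an interval that includes 0. Depth over intron 13 went from 9.19 in the control to 13.3 after WBP11 RNAi, and from 23.8 in the auxin control to 17.1 under auxin. Spliced reads went from 99 to 496 and from 202 to 581. The lower ratio went with more spliced reads rather than with less intron coverage in the RNAi table. The intron overlaps an annotated exon.

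PRPF4, PRPF6, SNRNP40, SART1 and DDX23 complete the tri-snRNP genes. DDX23, the helicase that helps release U1, was listed at 8 introns: intron 7 (130 bp) stood at 9.31% against 3.26% after SNW1 RNAi (6.05 points, 0.99 to 10.54) and 6.53% against 2.87% under auxin. DDX23 intron 6 (284 bp) had the highest control ratio of that gene, 10.5%, and stood at 6.34% after WBP11 RNAi and 14.4% after SNW1 RNAi, with intervals that include 0 for both. PRPF6, the bridge between U5 and U4/U6, lay 1.27 to 4.75 points above control at 3 introns after SNW1 RNAi. PRPF4 intron 10 stood at 0.505% against 1.29% in that table, -0.79 points with an interval that includes 0.

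Set against all introns, few snRNP introns changed by 10 points. After WBP11 RNAi 1 of 57 rose (1.75%), where 9.07% of all introns tested did, and 1 of 57 fell, where 1.69% did. After SNW1 RNAi 2 of 100 rose (2%), against 16.6% of all introns, and 0 fell against 0.359%. Under auxin 2 of 57 rose (3.51%), against 13.8%, and 0 fell against 1.37%. Differences of under 5 points made up 54 of 57, 89 of 100 and 48 of 57 member introns. The share of all introns under 5 points was not computed. The quartiles over all introns tested were -1.14 and 3.17, 1.14 and 6.71, and -0.19 and 4.92 points in the same order. The shares are not matched for depth: the median observations were 366, 317 and 499 at member introns and 107, 111 and 112 over all introns. Counting error alone reaches 10 points more readily at low depth. Between the 2 controls, 5.01% of all introns were at least 10 points higher in the auxin control. What part depth has in these shares was not tested.

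The median difference over these introns was -0.03, 1.29 and 0.82 points, beside 0.76, 2.63 and 1.45 points over all introns tested. Retention was above control at 28 of 57 introns after WBP11 RNAi (49.1%, all introns 59.6%), at 88 of 100 after SNW1 RNAi (88%, all introns 91.3%) and at 37 of 57 under auxin (64.9%, all introns 72.8%). A table lists an intron only if it reached 1% in at least 1 of its libraries. Through the depleted library alone, 16 of 57, 55 of 100 and 21 of 57 member introns were listed, beside 22.7%, 44.0% and 27.5% of all introns tested. Through the control alone, 18, 4 and 10 member introns were listed, and the share of all introns was not computed. The medians and shares above carry both selections. Median control ratios at the listed member introns were 1.53%, 0.784% and 1.26%, against 2.20%, 1.24% and 2.13% over all introns. The first 2 of each set come from the same control library, so they depend on which introns a table lists and are not a baseline of the genes.

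The width of an interval depends on depth, which was greater at the member introns. What part depth or the listing of introns has in the shares below was not tested. The interval of the difference lay above 0 at 10, 31 and 17 member introns, 17.5%, 31% and 29.8% of them, and did so at 14.2%, 31.0% and 20.6% of all introns. It lay below 0 at 8, 0 and 5 member introns, 14.0%, 0% and 8.77%, against 3.67%, 0.291% and 2.14% of all introns. The interval lay below 0 in both WBP11 tables at U2AF2 intron 9, PRPF3 intron 13 and SF3A2 intron 5. No member intron had an interval below 0 after SNW1 RNAi.

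**Figure D3:**
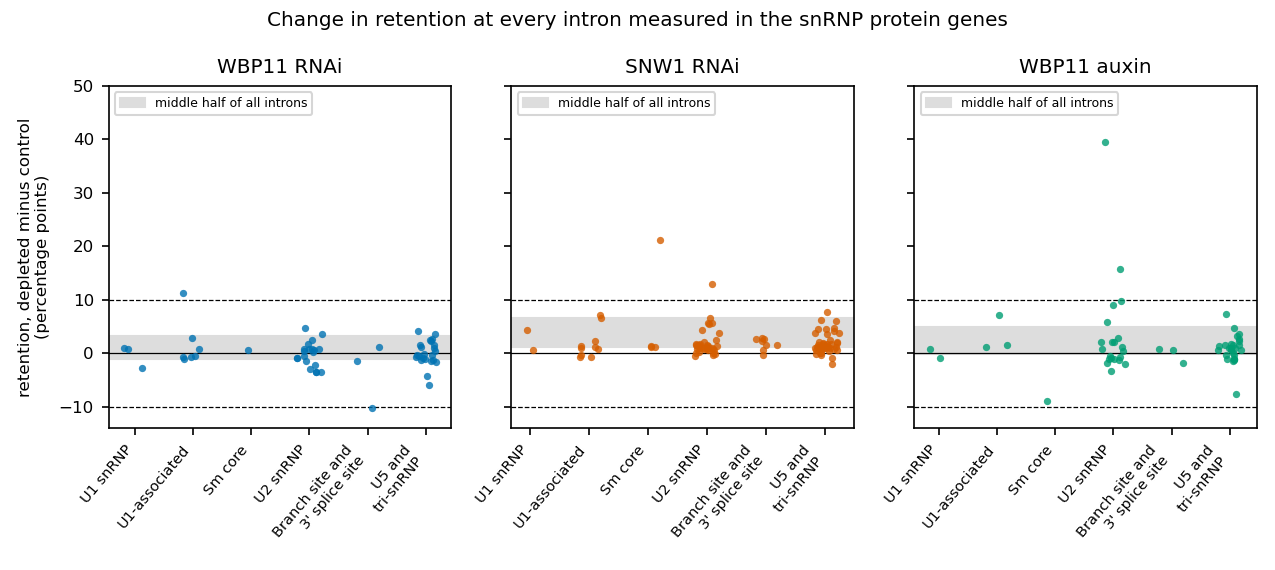
Difference in retention in percentage points (vertical axis) at every measured intron of the snRNP protein genes, by the role of the protein (horizontal axis), in the 3 comparisons. Each point is 1 intron, the grey band spans the quartiles of all introns tested and dashed lines mark 10 points up and down. Points of the SNW1 RNAi panel lie mostly just above 0, while the WBP11 RNAi points spread to both sides of it.

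Length is a feature that choosing the genes by name did not use. The median member intron was 405, 415 and 360 bp long in the 3 tables, against 406, 479 and 497 bp over all introns. In the WBP11 auxin table, the share of all introns that rose was 64.7% up to 80 bp, 34.8% above 80 and up to 90 bp, 20.1% above 90 and up to 100 bp, and 4.18% above 2000 bp. Both rises of that table, in SF3B2 and SF3B1, were in the class above 80 and up to 90 bp, where 2 of 5 member introns rose. The other members of that class were in SF1 (87 bp, 0.80 points), SART1 (89 bp, 2.39 points) and PRPF4 (90 bp, 2.76 points). Within the class, the members' share, on 5 introns, was close to that of all genes. Only 6 of the 57 member introns in that table were 90 bp or shorter. No member intron rose in the other classes. The counts were 0 of 1 up to 80 bp, 0 of 3 above 90 and up to 100 bp, and 0 of 8 up to 200 bp (all introns 12.9%). For longer introns they were 0 of 16 up to 500 bp (12.5%), 0 of 19 up to 2000 bp (7.32%) and 0 of 5 above that. What part length has in the members' shares was not tested.

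The second readout was the spliced reads of a gene over its listed introns, relative to the library's total over all listed introns. It covers only part of each gene and is not a full expression level. The introns summed for a gene can differ between the tables, so its ratios are not repeats of 1 measure. What part the listing of introns has in these ratios was not tested. After WBP11 RNAi, 16 of 23 member genes were at least 1.5-fold higher than control and 0 were 1.5-fold lower, beside 14.9% and 18.2% of all genes. After SNW1 RNAi, 18 of 26 were higher and 0 lower, beside 22.3% and 19.5% of all genes. Under auxin, 5 of 22 were higher and 0 lower, beside 24% and 17.5%. The median ratio was 1.79, 1.73 and 1.29 over the member genes and 1.03, 1.07 and 1.08 over all genes.

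PRPF3 had the highest ratio of the member genes in each of the 3 comparisons. It had 875 spliced reads against 200 after WBP11 RNAi, a ratio of 4.61 (3.95 to 5.40) relative to the library totals. It had 1006 against 414 after SNW1 RNAi, a ratio of 3.22 (2.87 to 3.62), and 1064 against 413 under auxin, a ratio of 2.24 (1.99 to 2.51). DDX23 stood at 3.48, 2.20 and 1.67 in the same order (6, 8 and 6 introns), and PRPF4 at 2.77, 2.37 and 1.42 (1, 3 and 5 introns). The PRPF4 intron behind 2.77 was listed through the control alone, at 0.148% against 1.29%. SNRNP200 and EFTUD2 of the same group were lower, at 1.54, 1.29 and 1.02 and at 1.41, 1.27 and 1.06.

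Among U2 genes, DDX46 stood at 3.35 after WBP11 RNAi (1557 reads against 490) and at 2.30 after SNW1 RNAi. The 3 DDX46 introns behind the first ratio were all listed through the control alone. SF3B4 stood at 2.12, 2.11 and 1.42, SF3B2 at 1.83, 1.61 and 1.30 and SF3B1 at 1.64, 1.85 and 1.51. The genes at least 1.5-fold higher under auxin were PRPF3, DDX23, PRPF6, SF3A1 and SF3B1. U2AF2 stood at 2.02 and 2.10 in the RNAi tables and at 0.844 (0.800 to 0.891) under auxin. The lowest ratios were SNRPC after SNW1 RNAi, at 0.779 (0.706 to 0.860), and SF3B3 under auxin, at 0.810.

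The choice of control moved these counts. The auxin control, set against the control of the RNAi tables at introns listed with both, had higher relative spliced reads in all 17 member genes that could be compared. The median ratio was 1.61 (range 1.12 to 2.84), 10 of the 17 were at least 1.5-fold higher and 0 were lower, beside 17.8% and 24.8% of all genes. DDX23 stood at 2.84, U2AF2 at 2.68, SF3B4 at 2.40 and PRPF3 at 2.34 between these 2 controls. Set against the auxin control, 2 of 15 member genes were at least 1.5-fold higher after WBP11 RNAi and 0 lower, beside 24.3% and 19.8% of all genes. They were PRPF3 (1.98) and PRPF6 (1.98). After SNW1 RNAi 3 of 16 were higher, SF3A2 (1.68), SART1 (1.62) and PRPF6 (1.60), and SNRPC was lower (0.422), beside 28.7% and 19.7% of all genes. The medians were 1.19 and 1.16. At those same introns with their own control, 13 of 15 and 11 of 15 were higher, beside 15.8% and 22% of all genes. The WBP11 auxin library had 15 of 17 member genes higher against the control of the RNAi tables (27.9% of all genes), with PRPF3 at 5.30 and DDX23 at 4.80, and 4 of 18 against its own control at those introns (24.4% of all genes). The counts of genes with higher spliced reads therefore changed with the control used. The 2 controls differ in genotype (osTIR1) and in auxin. They may also differ in siRNA treatment, since the headers call the other one control RNAi while its labels give no treatment. Each is 1 library, so these differences cannot be told apart. Which of the controls stands apart was not tested.

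**Figure D4:**
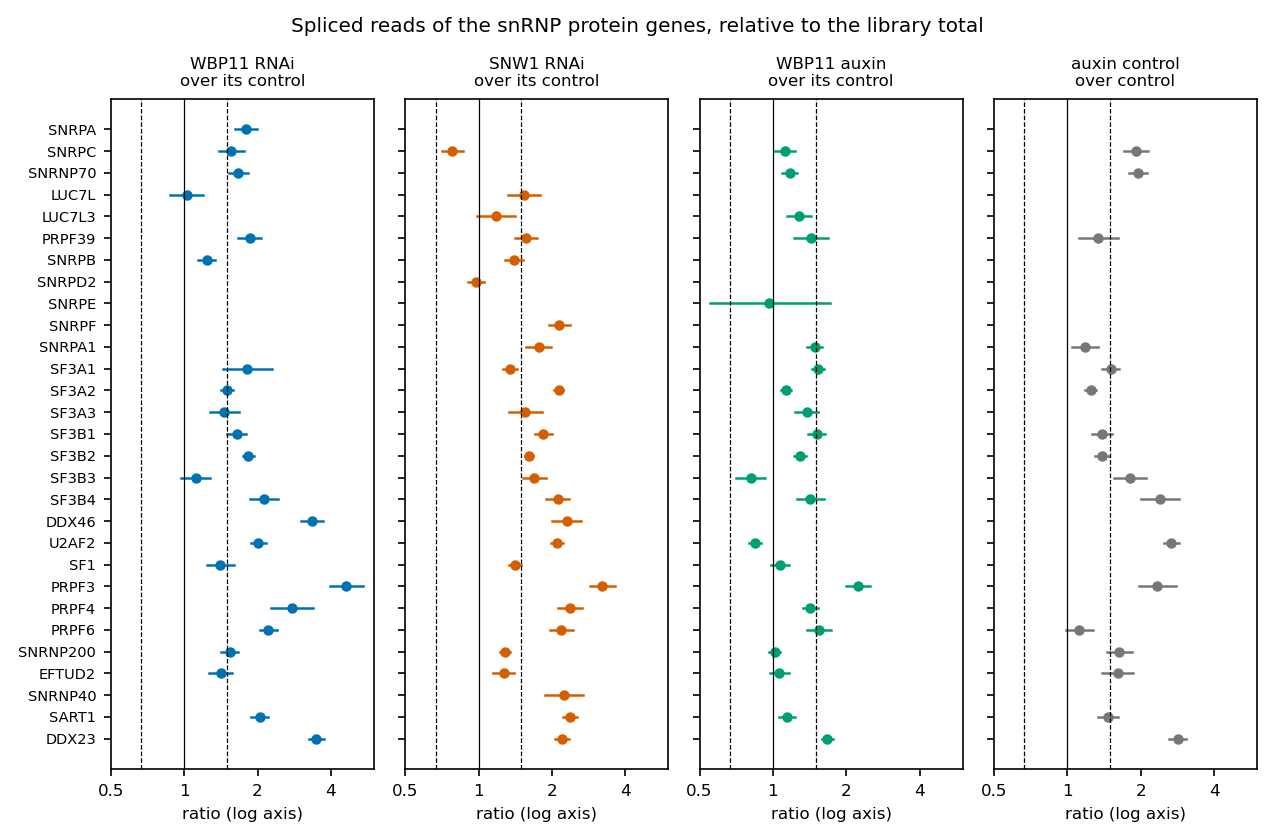
Ratio of relative spliced reads (horizontal log axis) for each snRNP protein gene (vertical axis) in WBP11 RNAi, SNW1 RNAi and WBP11 auxin over their own control, and in the auxin control over the control of the RNAi tables. Bars are 95% exact intervals for counting error, the solid line marks a ratio of 1 and dashed lines mark 1.5-fold up and down. The 17 points of the last panel all lie above 1.

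Retention was compared between the controls in points, not as a ratio, so the sizes cannot be set against those of the spliced reads. A difference of few points can be large in proportion. In the control of the RNAi tables and the auxin control, U2AF2 intron 1 stood at 1.72% and 0.455%, and SF3A2 intron 8 at 0.108% and 1.54%. Of 41 member introns listed with both, 1 differed by at least 10 points (SNRPE) and 2 by at least 5 points (SNRPE and U2AF2), with a median absolute difference of 0.446 points. Over 15056 introns of all genes, the median absolute difference was 1.33 points, 5.01% were at least 10 points higher in the auxin control and 0.844% lower. SF3B2 intron 18 and SF3B1 intron 19 were at 0.228% and 0.221%, and at 0.913% and 0.525%, in the 2 controls.

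Other genes of the same pathway, no members, were read from lists of textbook membership. Over all introns tested, 9.07%, 16.6% and 13.8% rose and 1.69%, 0.359% and 1.37% fell in the 3 comparisons. Lsm genes, which form the ring on U6 RNA, had 1, 3 and 1 introns measured and none that rose or fell. Genes for proteins of the U12-type snRNPs had 0 of 8, 0 of 13 and 0 of 9 introns that rose, and 1 that fell, in RNPC3 after WBP11 RNAi (0% against 12.5%, -12.49 points, -32.77 to 3.30). Genes for Sm ring assembly had 0 of 14, 0 of 23 and 0 of 16 that rose, and GEMIN8 fell after WBP11 RNAi (2.67% against 15.3%, -12.65 points, -36.26 to 8.74). Both falls rest on under 30 observations in each library and have intervals that include 0.

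A list of 23 further U1, U2 and tri-snRNP factors had 1 of 33, 6 of 49 and 5 of 38 introns that rose, beside 9.07%, 16.6% and 13.8% of all introns, and 1, 0 and 2 that fell, beside 1.69%, 0.359% and 1.37%. USP39, a tri-snRNP protein, fell at an intron that overlaps an exon, from 77.5% to 49.6% after WBP11 RNAi and from 73.8% to 37.0% under auxin. After SNW1 RNAi, introns rose in the kinase gene PRPF4B (57.1% to 83.5%, overlapping an exon) and in SUGP1 (8.40% to 25.4%). The same PRPF4B intron fell under auxin, from 78.1% to 41.6% (-36.50 points, -48.58 to -21.99). Its ratio was thus 57.1% in the control of the RNAi tables and 78.1% in the auxin control.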

How the data were processed

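PolyA RNA of 5 DLD-1 libraries, 1 per group, was read from 3 deposited tables that each pair a depleted library with a control. IRFinder made them from STAR alignments to hg38, per the file headers. RSEM and bedtools are named in the submitters' processing notes, and no tool version is given in the sources used here. The retention ratio is a fraction as deposited by the authors, shown here in percent. The intron depth is a coverage signal, and the spliced reads are a count per intron, both as deposited and not scaled between libraries. The deposited ratio differed by over 1 point from depth over depth plus spliced reads at 2.47% to 7.03% of introns per library, and at 2 member introns, in SNRPE and SF3B2.

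Depth plus spliced reads had to reach 10 in both libraries, which every listed member intron did. Differences have Newcombe and ratios Wilson 95% intervals, and spliced-read ratios have exact binomial intervals, for genes with at least 50 reads over both libraries. PCR reads are not independent molecules, and the intervals cover only the error of counting. Introns were matched to GENCODE release 29, and coordinates are counted from 1. Scripts used Python 3.11.15, pandas 2.3.3, NumPy 2.4.6, SciPy 1.17.1 and matplotlib 3.10.9, and the calls were tested on simulated data.

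The members and lists were chosen with earlier results of these data known. Named introns are those that rose or fell, the 3 largest rises and 2 largest falls per table, and, from other lists, up to 3 per list and table; further members illustrate their group. Some genes that this rule names are not reported here. Alternatives covered depth, size of change, warnings, exon overlap, 1 intron per gene, centring and, added after seeing the data, the ratio recomputed, the other count of spliced reads and the other control.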

Additional observations from a re-analysis of the deposited data

Results flagged for a closer look

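The SNRPE intron at chr1:203861744-203862181 was singled out because its difference pointed up after SNW1 RNAi (21.26 points) and down under auxin (-8.98 points), which puts the comparisons 30.24 points apart. With ratios recomputed from depth and spliced reads they were 19.1 points apart. The U2AF2 intron at chr19:55668793-55669082 was singled out because it fell after WBP11 RNAi (-10.22 points) and pointed up after SNW1 RNAi (2.68 points), -12.90 points apart with the same control library in both. Neither of these differences between comparisons was tested, since each group has 1 library.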

How the results depend on the processing

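Of the alternatives to the counts and medians, 72 planned and 27 added ones kept them and 27 planned and 9 added ones moved them. Introns that rose after WBP11 RNAi (1 as reported) were 0 without introns that carry a warning, with 1 intron per gene, at 20 points or with the other control, with which the PRPF39 intron is not listed. Those that fell (1) were 2 at 5 points, and 0 at 20 points or with the other control, where U2AF2 stood at -4.72 points. After SNW1 RNAi the rises (2) were 11 at 5 points, 1 at 20 points, 1 each at a depth of 50, without exon overlap, with 1 intron per gene or with an interval without 0, and 0 without warnings or with the other control, with which SF3B2 intron 5 is not listed. Under auxin the rises (2) were 7 at 5 points and 1 at 20 points, without warnings or with 1 intron per gene, and falls (0) were 2 at 5 points and 1 after subtracting the median of all introns. That subtraction gave medians of -0.78, -1.34 and -0.63 points, so the medians of SNW1 RNAi and WBP11 auxin changed sign. The SNW1 RNAi median (1.29) was 1.68 without warnings, 0.99 with 1 intron per gene and 1.63 with the other control. Genes with higher spliced reads (16, 18 and 5) were 8, 11 and 1 at 2-fold and 2, 3 and 15 with the other control, after SNW1 RNAi 11 with its own control at the introns listed with both and 1 lower with the other control, and under auxin 2 relative to the median gene.

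No paired analysis was possible because each group has 1 library. Depth limits the calls in PRPF39 and SNRPE, and introns under 1% in both libraries of a table are not listed.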
